A study of Mus musculus with 8 samples.

Results

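Nuclear genes named for the mitochondrial respiratory chain and the ATP synthase were compared between IE-Cpr-null and wild-type (WT) enterocytes, complex by complex. Members were all probe sets with a single gene symbol in the platform annotation that began with Nduf, Uqcr, Atp5 or Cox4 to Cox8, or that was Sdha, Sdhb, Sdhc, Sdhd or Cyc1. The rule took 82 of the 10401 genes with a probe set of their own, through 150 of the 18443 probe sets. Complex I had 73 probe sets of 39 genes, complex II had 7 of 4, complex III had 14 of 9, complex IV had 28 of 13 and complex V, the ATP synthase, had 28 of 17. Those of complex I include 6 probe sets of 5 assembly factor genes (Ndufaf), which are not subunits. Other matching symbols that may not name a subunit were not excluded. Probe sets of 1 gene share their target and are not independent.

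The respiratory chain passes electrons from NADH, through complex I, and from succinate, through complex II, to ubiquinone, then through complex III and cytochrome c to complex IV, which reduces oxygen. Complexes I, III and IV pump protons out of the mitochondrial matrix, and complex V lets them flow back to make ATP. Enterocytes spend much of that ATP on the sodium pump that drives absorption. A few subunits of complexes I, III, IV and V are encoded in mitochondrial DNA and none of complex II is. The members here are nuclear genes.

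Enterocytes, the absorptive cells of the gut lining, were taken from small intestines of C57BL/6 males, 2.5 to 3.0 months old. The IE-Cpr-null genotype is deleted for Cpr in the intestinal epithelium, where the encoded reductase hands electrons to microsomal P450 enzymes, and the controls were WT littermates. The promoter that drives the deletion is not given in the sources used here, and the targeted transcript was not analysed here. Each genotype had 4 arrays, each with RNA pooled from 2 mice (8 mice per genotype), so errors describe the spread between pools and the number of arrays limits the precision. Values are log2 and were deposited centred, each probe set having a WT median of 0. They hold no expression level, and every value below is a log2 difference from that median or between the genotypes, IE-Cpr-null minus WT.

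Whole-array features bear on the members as follows. Of 12 enterocyte markers 10 were measured, and their mean ran from -0.093 to 0.027 over the 8 arrays. Because levels are unknown, their presence could not be checked. Muscle markers (14 of 18 measured, 12 higher and 2 lower) had means of 1.70 on WT replicate 2 and 3.95 on IE-Cpr-null replicate 1, and -0.41 to 0.36 on the other arrays. Hepatocyte markers (10 of 12 measured, 9 higher and 1 lower) had means of 5.63 and 3.38 on IE-Cpr-null replicates 2 and 3, and -0.15 to 0.27 elsewhere. Pancreatic acinar markers (10 of 14 measured, all 10 lower) had means of -5.07 to -2.0 in IE-Cpr-null, -4.80 on WT replicate 3 and -0.64 to 1.52 on the other WT arrays. Immune markers (8 of 10 measured, 4 higher and 4 lower) had means of -0.16 to 0.24 on WT arrays and -0.32 to 0.17 in IE-Cpr-null. In such bulk preparations, fewer cells of a type and less RNA per cell cannot be told apart. The part of these markers in the members' differences was not tested.

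No single probe set of the chain passed the test in the unweighted fit, and most differences were small and negative. Of the 150 member probe sets 130 had a negative difference and 20 a positive one, with a median of -0.054, or 96.3% of the WT level. Over all 18443 probe sets the median difference was 0.016 and 42.5% were negative. No member passed an adjusted p of 0.05 (limma, Benjamini-Hochberg over all probe sets). The smallest adjusted p was 0.287, and 0.0217% of all probe sets passed. At an unadjusted p under 0.05, 23 members were lower and 0 higher, which is 15.3% of members lower against 4.47% of all probe sets lower and 2.92% higher.

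A second count needs no model of the spread. In 21 member probe sets of 17 genes every IE-Cpr-null array lay below every WT array, 14% of members against 2.47% of all probe sets. In 0 members did every IE-Cpr-null array lie above, against 1.64% of all probe sets. The 17 genes were Ndufa1, Ndufa7, Ndufa8, Ndufa9, Ndufa10, Ndufa12, Ndufb11, Ndufc1, Ndufc2, Ndufs3 and Ndufs8 of complex I, Sdha and Sdhd of complex II, Uqcr10 and Uqcrc2 of complex III, Cox6a1 of complex IV and Atp5g1 of complex V. Quantile normalization, applied to the centred values, left 5 such probe sets (0.878% of all probe sets) and 10 lower at an unadjusted p under 0.05 (2.07%). Median centring of the arrays gave 23 such probe sets (2.88% of all) and 33 lower at an unadjusted p under 0.05 (5.15%). Leaving out WT replicate 2 or IE-Cpr-null replicate 2 left 9 lower at an unadjusted p under 0.05 (3.7% and 3.54% of all probe sets), and 13 were left without WT replicate 4 (3.24%). With fewer arrays more groups are apart, up to 48 members without WT replicate 1 (3.96% of all probe sets), 35 without IE-Cpr-null replicate 1 (5.14%) and 32 without IE-Cpr-null replicate 4 (3.41%). Without IE-Cpr-null replicates 2 and 3, the hepatocyte-rich arrays, 5 members were lower at an unadjusted p under 0.05 (4.39% of all), so that count was near its background, while 27 probe sets did not overlap (7.53% of all) and 117 of 150 were negative. With array weights, which counted IE-Cpr-null replicate 4 most (weight 6.49) and IE-Cpr-null replicate 1 least (0.329), 4 members passed an adjusted p of 0.05 in limma, 2.67% of members against 4.02% of all probe sets.

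**Figure D1:**
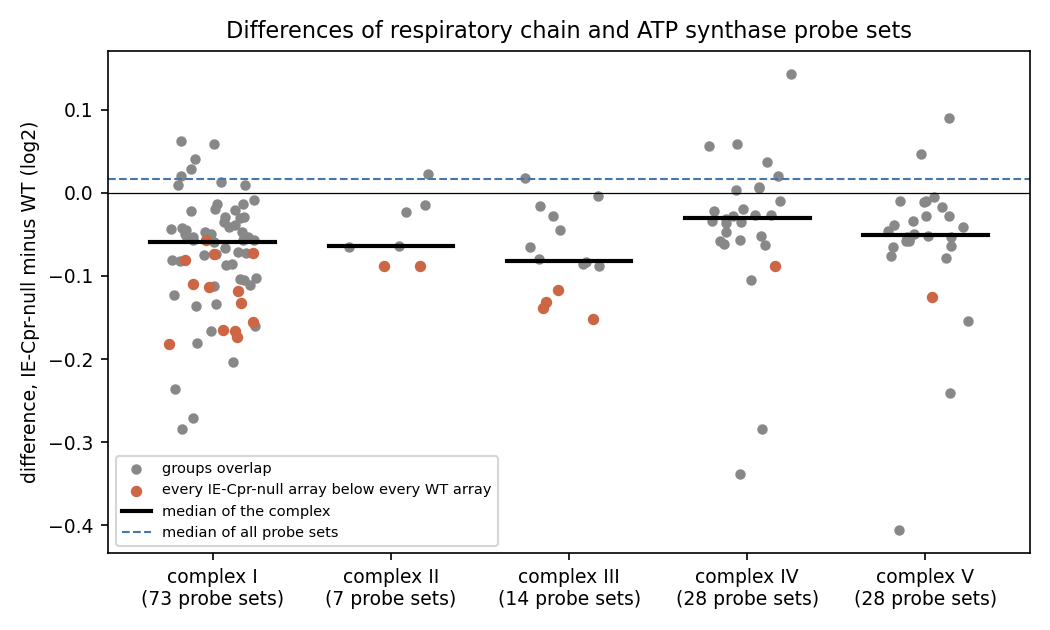
Each point is a member probe set and its height is the difference IE-Cpr-null minus WT on the log2 scale, by complex. Black bars are the medians, -0.060, -0.064, -0.082, -0.030 and -0.050 for complexes I to V, all below the dashed line of all probe sets at 0.016; orange points are the 21 whose groups did not overlap.

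Of the members 114 differed by less than 0.1, 28 by 0.1 to 0.2 and 8 by more than 0.2. The SD over the 8 arrays had a median of 0.065 in members and 0.124 in all probe sets, and 128 of the 150 members lay at or below the latter. The median standard error of a member's difference was 0.038.

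The medians of the complexes show which arrays carried the difference. The complex I median was -0.0087, 0.013, -0.0015 and -0.0056 on WT replicates 1 to 4 and -0.049, -0.052, -0.105 and -0.036 on IE-Cpr-null replicates 1 to 4. That of complex III was -0.0036, 0.0092, -0.0060 and 0.0016 on WT arrays and -0.107, -0.077, -0.071 and -0.023 in IE-Cpr-null. That of complex V was -0.017, 0.014, 0.0049 and -0.0065 on WT arrays and -0.045, -0.037, -0.067 and -0.031 in IE-Cpr-null. In these 3 complexes every IE-Cpr-null array lay below every WT array. In complex II (WT -0.022, 0.012, -0.0054 and 0.0054; IE-Cpr-null -0.032, -0.0096, -0.044 and -0.020) and in complex IV (WT -0.017, 0.014, 0.019 and -0.0096; IE-Cpr-null -0.043, -0.0092, -0.051 and -0.023) the arrays overlapped. No p is given for these medians, since members of a complex are not replicates.

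**Figure D2:**
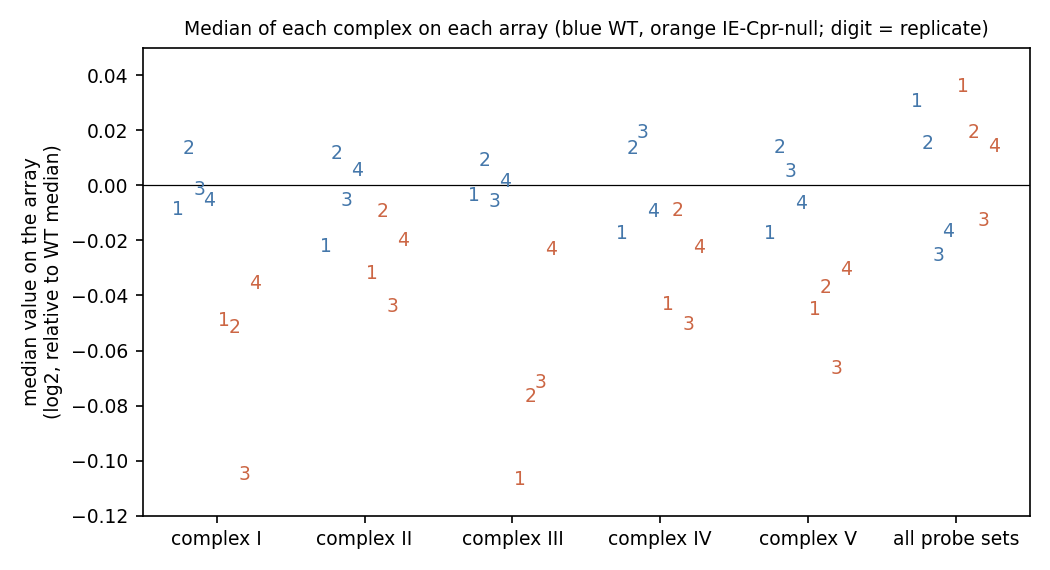
Digits are replicate numbers, blue for WT and orange for IE-Cpr-null, and the height is the median log2 value of a complex, or of all probe sets, on that array. IE-Cpr-null arrays sit below the WT arrays in complexes I, III and V, from -0.107 to -0.023, while medians over all probe sets overlap between -0.025 and 0.036.

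IE-Cpr-null replicate 3 stood lowest in complexes I, II, IV and V and replicate 1 in complex III. On replicate 3, one of the hepatocyte-rich arrays, 89 of 150 members lay below all 4 WT arrays (59.3%, against 18.4% of all probe sets). The count was 68 on replicate 1 (45.3%, against 24.0%), 65 on replicate 2 (43.3%, against 23.9%) and 48 on replicate 4 (32.0%, against 17.4%). Replicate 4 had the fewest such members of the 4 arrays, and also the smallest share over all probe sets (17.4%). Its muscle and hepatocyte means were -0.25 and 0.17, and their part in this count was not tested. WT replicate 3 had an acinar mean of -4.80 and a median over all members of -0.00036. IE-Cpr-null replicate 1 had an acinar mean of -2.0 and a member median of -0.053. On IE-Cpr-null replicates 2 to 4 these were -5.07 to -4.95 and -0.078 to -0.032. WT values are centred on 0, and the part of acinar RNA in the members was not tested.

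**Figure D3:**
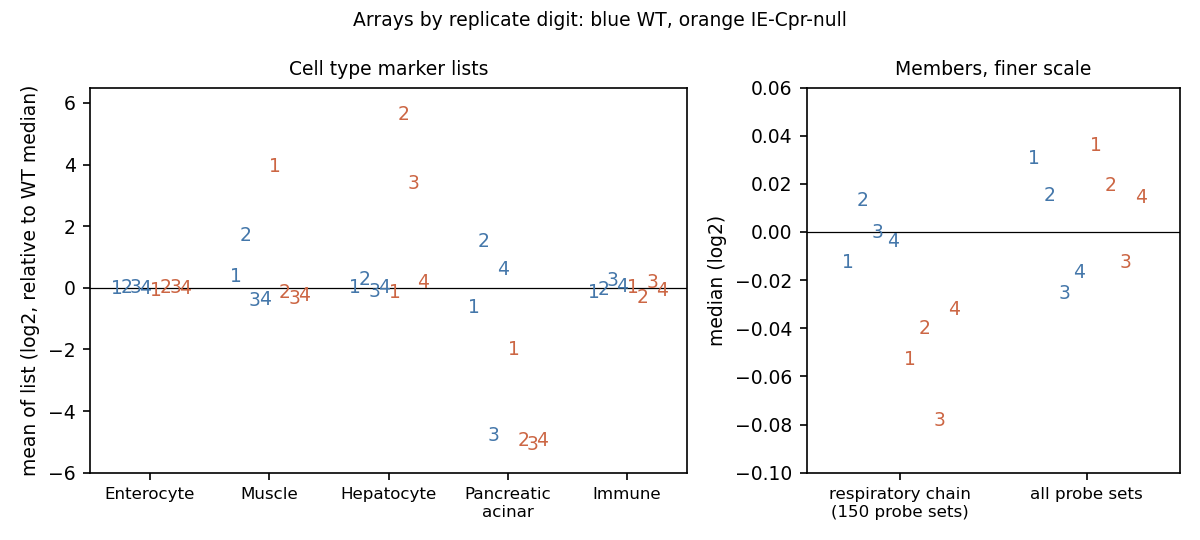
The left panel gives the mean of each marker list and the right panel, on a finer scale, the median of the 150 members and of all probe sets, for each array (digits are replicates, blue WT, orange IE-Cpr-null, log2). Hepatocyte means reach 5.63 and the muscle mean 3.95 on single IE-Cpr-null arrays, whereas the members' medians run from -0.078 to -0.032 on all 4 IE-Cpr-null arrays.

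Complex I, the NADH dehydrogenase, had 65 of its 73 probe sets negative. At an unadjusted p under 0.05 there were 16 lower (21.9%, against 4.47% of all probe sets), and 13 had groups apart (17.8%, against 2.47%). The smallest p was that of Ndufa8, an accessory subunit of the intermembrane space side. Its WT arrays read -0.013, 0.013, 0.041 and -0.025 and its IE-Cpr-null arrays -0.18, -0.17, -0.19 and -0.11. The groups were apart by more than the spread within either, and the difference was -0.17 (SE 0.0219, 95% interval -0.25 to -0.087, ratio 0.891, limma adjusted p = 0.287).

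Promoter sequences are shown for 4 genes with non-overlapping groups, since nuclear genes of the chain are known as targets of the transcription factors NRF1 and GABP. The 250 bases before the annotated start, from RefSeq (GRCm38.p6), were searched on both strands for CATGCGC, one side of the NRF1 palindrome, and for CCGGAAG, the core bound by GABP and other ETS factors. The 2 strands of the first can overlap in the full palindrome. Capitals mark matches. Ndufa8 had the smallest p of all members, Cox6a1 the smallest of complex IV, and Uqcr10 had 3 of 3 probe sets with groups apart. Ndufs3 is a core subunit of complex I, though Ndufs8 had the smallest p of these.
Ndufa8 (GRCm38.p6, chr2:36049339-36049588, minus strand): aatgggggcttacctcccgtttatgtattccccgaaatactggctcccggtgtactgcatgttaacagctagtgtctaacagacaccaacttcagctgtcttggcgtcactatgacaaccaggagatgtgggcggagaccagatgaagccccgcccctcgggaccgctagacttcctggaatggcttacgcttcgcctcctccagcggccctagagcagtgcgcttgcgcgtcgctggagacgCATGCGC
Cox6a1 (GRCm38.p6, chr5:115348959-115349208, minus strand): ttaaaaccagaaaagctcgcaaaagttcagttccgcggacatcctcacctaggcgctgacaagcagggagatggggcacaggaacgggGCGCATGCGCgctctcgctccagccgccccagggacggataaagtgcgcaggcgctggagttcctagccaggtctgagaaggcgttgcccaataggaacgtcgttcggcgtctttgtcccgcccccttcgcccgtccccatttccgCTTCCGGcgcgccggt
Ndufs3 (GRCm38.p6, chr2:90904722-90904971, minus strand): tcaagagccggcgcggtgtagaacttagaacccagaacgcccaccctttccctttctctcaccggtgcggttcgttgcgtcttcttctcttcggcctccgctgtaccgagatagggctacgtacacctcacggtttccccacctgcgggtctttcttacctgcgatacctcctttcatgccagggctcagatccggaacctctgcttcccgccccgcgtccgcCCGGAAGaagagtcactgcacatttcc
Uqcr10 (GRCm38.p6, chr11:4704345-4704594, minus strand): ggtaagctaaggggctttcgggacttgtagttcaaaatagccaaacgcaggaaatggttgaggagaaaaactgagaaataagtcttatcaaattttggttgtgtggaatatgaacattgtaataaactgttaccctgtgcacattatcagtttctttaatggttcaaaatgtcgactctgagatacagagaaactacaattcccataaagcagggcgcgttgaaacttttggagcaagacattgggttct
Ndufa8 held the NRF1 letters at the last bases before the start, Cox6a1 held both motifs, Ndufs3 the ETS core alone and Uqcr10 neither in this window. Promoters were found for 70 of the 82 member genes. Of these 10 held CATGCGC (14.3%, against 3.68% of all 27025 genes with a promoter in the table) and 13 held CCGGAAG (18.6%, against 7.83%). Member promoters had a median GC content of 57.6% and all promoters of 52.4%. The part of base composition in these shares was not tested. Of the 16 genes with groups apart and a promoter, 2 held the first motif (Cox6a1 and Ndufa8) and 3 the second (Cox6a1, Ndufs3 and Sdhd). The 4 genes shown thus hold nearly all of these matches and are not typical of the 16. Whether the motifs go with lower values was not tested.

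Among the core subunits of complex I, which carry the flavin and the iron-sulfur clusters, all 15 probe sets of 6 genes were negative (median -0.057). Ndufs8, a subunit that binds iron-sulfur clusters, led them. It read 0.050, 0.052, -0.050 and -0.087 on WT arrays and -0.20, -0.22, -0.18 and -0.16 in IE-Cpr-null. The difference was -0.18 (SE 0.0376, interval -0.28 to -0.081, adjusted p = 0.339). Its other 4 probe sets gave -0.087, -0.086, -0.057 and -0.053, all with overlapping groups, so the size depended on the probe set.

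Ndufs3, a core subunit of the arm that meets ubiquinone, read -0.016, 0.014, 0.00049 and -0.00049 on WT arrays and -0.095, -0.087, -0.10 and -0.040 in IE-Cpr-null. Its groups were apart but the difference was only -0.081 (SE 0.0155, adjusted p = 0.606). Ndufs1, which holds further clusters of the NADH-oxidising arm, differed by -0.10 (SE 0.0372, adjusted p = 0.671), with groups that overlapped through -0.012 on IE-Cpr-null replicate 4. Ndufv1, the NADH-binding flavoprotein, gave -0.055, -0.030 and -0.031 in its 3 probe sets, and Ndufv2 -0.057, -0.043 and -0.049.

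The 28 accessory genes, which surround the core, had 52 probe sets, 45 of them negative (median -0.063). Ndufb11, of the membrane arm, was low in 3 probe sets. The leading one read -0.039, 0.015, 0.043 and -0.015 on WT arrays and -0.20, -0.28, -0.10 and -0.10 in IE-Cpr-null, a difference of -0.17 (SE 0.0473, adjusted p = 0.438). The others differed by -0.17 (SE 0.054) and -0.11 (SE 0.0453). Ndufa10, also an accessory subunit, gave opposite signs. One probe set read -0.039, 0.092, -0.049 and 0.039 on WT arrays and -0.13, -0.12, -0.21 and -0.12 in IE-Cpr-null (difference -0.15, SE 0.0396, adjusted p = 0.438), and the other differed by 0.062 (SE 0.113), with 0.36 on IE-Cpr-null replicate 2.

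Ndufb6 likewise differed by -0.10 (SE 0.0318, adjusted p = 0.606) in one probe set and 0.013 (SE 0.0953) in the other. Ndufs4 had the largest difference of the accessory genes, -0.24 (SE 0.161, adjusted p = 0.835). It lay within the spread, with WT at 0.29, 0.029, -0.22 and -0.029 and IE-Cpr-null at -0.33, -0.49, -0.13 and 0.072. Its other probe sets differed by -0.030 and 0.0091, and with array weights the leading one turned to 0.0082. Positive differences in complex I ran up to the 0.062 of Ndufa10, and Ndufa6 was at 0.040 (SE 0.0311). Among other accessory genes with non-overlapping groups, Ndufc1 differed by -0.13 (SE 0.0531), Ndufc2 by -0.12 (SE 0.0305), Ndufa9 by -0.11 (SE 0.0265) and Ndufa1 by -0.073 (SE 0.015). Ndufa5 differed by -0.18 (SE 0.0646, adjusted p = 0.558) with overlap. Ndufa4, named as a complex I gene but now known to sit in complex IV, differed by -0.13 (SE 0.123).

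The assembly factors, which help to build complex I and are not part of it, had 6 probe sets of 5 genes and a median of -0.18. Ndufaf4 was the most uneven. It read 0.080, -0.036, -0.093 and 0.036 on WT arrays and 0.22, -0.50, -0.58 and -0.24 in IE-Cpr-null, so that replicate 1, the muscle-rich array, was above all WT arrays and the other 3 below. The difference was -0.27 (SE 0.184, adjusted p = 0.83), and its second probe set, also with replicate 1 above and the others below all WT arrays, differed by -0.28 (SE 0.229). Ndufaf1 differed by -0.20 (SE 0.0876, adjusted p = 0.652), and Ndufaf7 by 0.058 (SE 0.0859).

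**Figure D4:**
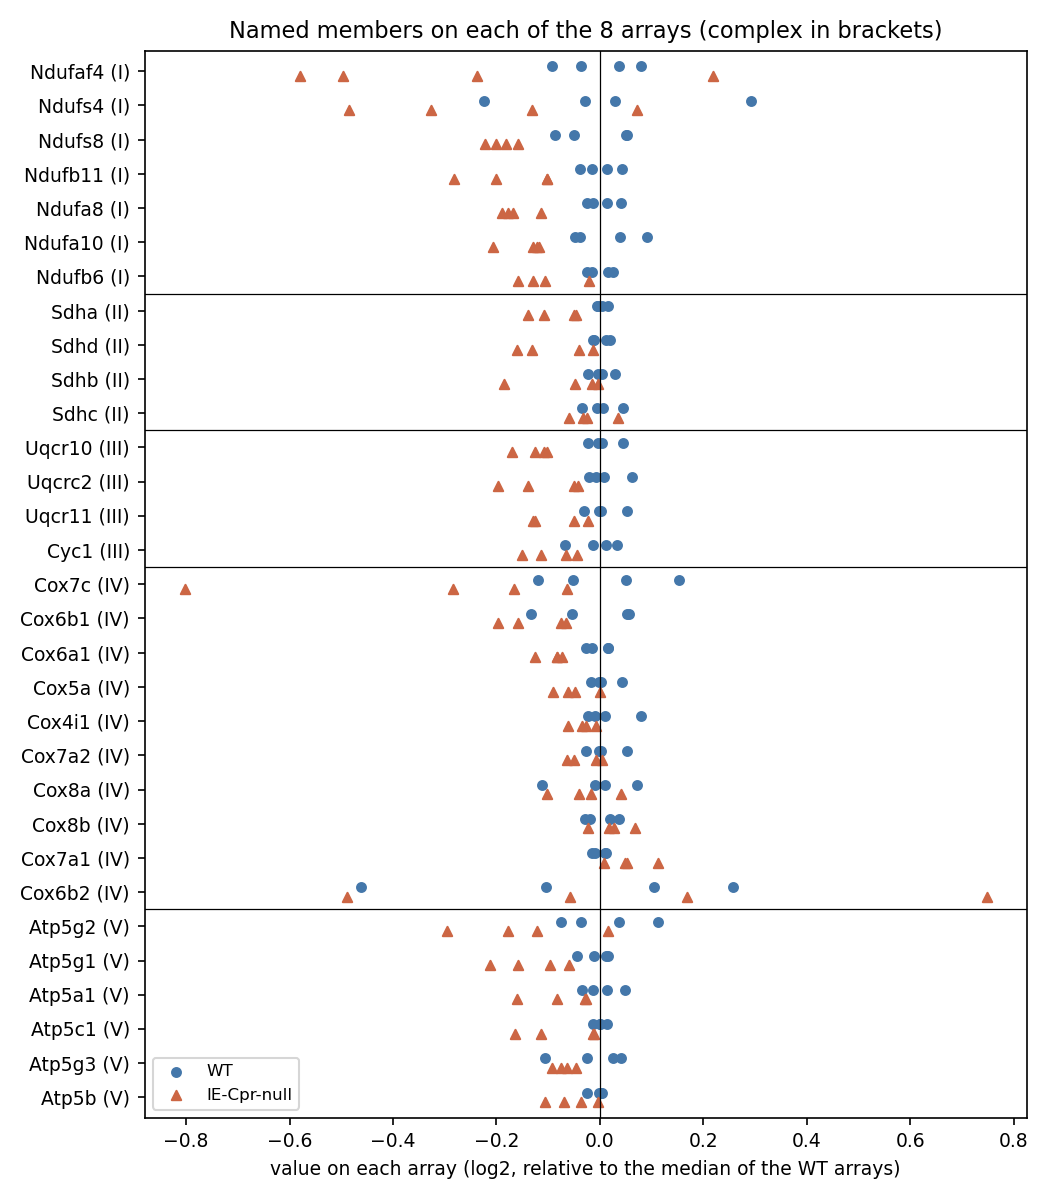
Each row is the leading probe set (smallest p) of a named gene, with its complex in brackets; circles are the 4 WT arrays and triangles the 4 IE-Cpr-null arrays, on the log2 scale relative to the WT median. Ndufa8, Ndufs8, Uqcr10 and Cox6a1 have their triangles apart to the left of the circles, while Cox7c, Ndufaf4 and Cox6b2 are wide in IE-Cpr-null.

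Complex II, succinate dehydrogenase, is also an enzyme of the tricarboxylic acid cycle. Its flavoprotein gene Sdha read 0.016, -0.0043, -0.0055 and 0.0043 on WT arrays and -0.14, -0.11, -0.047 and -0.051 in IE-Cpr-null. The groups were apart, with a difference of -0.088 (SE 0.0228, interval -0.17 to -0.0081, adjusted p = 0.62). A second Sdha probe set gave -0.064 (SE 0.0418) with overlap. Sdhd, a membrane anchor, read -0.012, 0.012, -0.013 and 0.019 on WT arrays and -0.16, -0.13, -0.040 and -0.014 in IE-Cpr-null, with -0.014 just below the lowest WT array (difference -0.088, SE 0.0361, adjusted p = 0.733), and its second probe set gave -0.014.

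Sdhb, the iron-sulfur subunit, read -0.022, 0.029, 0.0035 and -0.0035 on WT arrays and -0.19, -0.048, -0.016 and -0.0037 in IE-Cpr-null. It differed by -0.065 (SE 0.043, adjusted p = 0.86), with IE-Cpr-null replicate 1 farthest below WT at -0.19. The other anchor, Sdhc, gave -0.023 (SE 0.0258) and 0.022 (SE 0.0254), within the spread. Complex II thus had 2 of 7 probe sets with groups apart (28.6%, against 2.47% of all probe sets), 1 of Sdha and 1 of Sdhd. The second probe set of each had groups that overlapped.

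Complex III, the cytochrome bc1 complex, had a median of -0.082, or 5.5% below WT, and 13 of 14 probe sets were negative. This was the lowest of the 5 with all arrays, but complex II was lower without the hepatocyte-rich arrays (-0.0859 against -0.0679) and complex I without the muscle-rich arrays (-0.0629 against -0.0598) or IE-Cpr-null replicate 1 (-0.0719 against -0.0564). Uqcr10 is a small subunit. Its leading probe set read -0.023, 0.045, 0.0035 and -0.0035 on WT arrays and -0.11, -0.12, -0.17 and -0.10 in IE-Cpr-null, a difference of -0.13 (SE 0.0213, interval -0.21 to -0.053, adjusted p = 0.355). The other probe sets differed by -0.15 (SE 0.0403, adjusted p = 0.463) and -0.14 (SE 0.0353, adjusted p = 0.471), and in all 3 the groups were apart. With 1 probe set of Uqcrc2, these made 4 of the 14 with groups apart (28.6%, against 2.47% of all probe sets).

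The core protein gene Uqcrc2 read 0.0071, 0.062, -0.021 and -0.0071 on WT arrays and -0.20, -0.14, -0.050 and -0.042 in IE-Cpr-null (difference -0.12, SE 0.0413, adjusted p = 0.625), but its second probe set gave only -0.027. Cyc1, which encodes cytochrome c1, read -0.067, 0.013, -0.013 and 0.034 on WT arrays and -0.11, -0.15, -0.065 and -0.044 in IE-Cpr-null. These groups overlapped (difference -0.085, SE 0.0323, adjusted p = 0.723). Uqcrfs1, the Rieske iron-sulfur protein gene, was at -0.084 (SE 0.0326, adjusted p = 0.725) and the small subunit Uqcr11 at -0.088 (SE 0.0317, adjusted p = 0.708). Uqcrh, the hinge protein gene, was at -0.016 (SE 0.0134, interval -0.086 to 0.055).

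Complex IV, cytochrome c oxidase, had a median of -0.030, or 2.04% below WT, with 20 of 28 probe sets negative. At an unadjusted p under 0.05 or with groups apart it had 1 probe set each way of counting, 3.57%, near the 4.47% and 2.47% of all probe sets. That probe set was Cox6a1, the widely expressed form of subunit VIa. It read -0.027, 0.016, -0.015 and 0.015 on WT arrays and -0.13, -0.083, -0.083 and -0.073 in IE-Cpr-null (difference -0.088, SE 0.0159, adjusted p = 0.558), while a second gave -0.028 with overlap.

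Several subunits of complex IV have a widely expressed form and a muscle or testis form. Cox4i1 differed by -0.047 (SE 0.0253), Cox6b1 by -0.10 (SE 0.0558), Cox7a2 by -0.036 (SE 0.0232) and Cox8a by -0.020 (SE 0.0484), all with overlapping groups. The sign of Cox8a turned without IE-Cpr-null replicate 1 (0.00446) or WT replicate 3 (0.00787), and that of Cox7a2 with array weights (0.000348). Cox5a was at -0.057 (SE 0.0229). The muscle form Cox7a1 read -0.016, 0.013, -0.010 and 0.010 on WT arrays and 0.048, 0.0085, 0.053 and 0.11 in IE-Cpr-null, a difference of 0.056 (SE 0.0227, adjusted p = 0.828). It was not highest on the muscle-rich IE-Cpr-null replicate 1. Cox8b, also a muscle form, differed by 0.020 (SE 0.0244), with 0.068 on that array and 0.019 on the muscle-rich WT replicate 2.

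The largest positive difference of any member was that of Cox6b2, the testis form, at 0.14 (SE 0.301). It was within the spread, with WT from -0.46 to 0.26 and IE-Cpr-null from -0.49 to 0.75, and it turned to -0.22 without the hepatocyte-rich arrays. Cox7c, a small subunit, had the largest negative one of complex IV. Its leading probe set read 0.15, 0.051, -0.051 and -0.12 on WT arrays and -0.063, -0.80, -0.17 and -0.28 in IE-Cpr-null (difference -0.34, SE 0.175, adjusted p = 0.721), so that IE-Cpr-null replicate 2 carried much of it. Cox5b gave 3 positive and 3 negative differences in 6 probe sets, from -0.052 to 0.059.

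Complex V makes ATP in its F1 head, driven by the ring of c subunits in the membrane part, Fo. Of its 28 probe sets 26 were negative, with medians of -0.058 over the 9 of F1 and -0.042 over the 19 of Fo, the stalk and other parts. Its 1 probe set with groups apart (3.57%, near the 2.47% of all probe sets) was that of Atp5g1, one of 3 genes that encode the same mature c subunit. Atp5g1 read -0.011, 0.015, -0.045 and 0.011 on WT arrays and -0.060, -0.21, -0.16 and -0.10 in IE-Cpr-null (difference -0.13, SE 0.0366, adjusted p = 0.541). Atp5g2 differed by -0.15 (SE 0.0768, adjusted p = 0.725), with IE-Cpr-null replicate 1 at 0.016 among the WT arrays, and Atp5g3 by -0.053 (SE 0.0348, adjusted p = 0.86).

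The catalytic subunit gene Atp5b read -0.026, -0.0015, 0.0048 and 0.0015 on WT arrays and -0.11, -0.070, -0.0031 and -0.037 in IE-Cpr-null, a difference of -0.049 (SE 0.0233, interval -0.13 to 0.032, adjusted p = 0.86). Its partner Atp5a1 differed by -0.078 (SE 0.0361) in its leading probe set, by -0.034 (SE 0.0216) in the next and by 0.047 (SE 0.137) in the third, where IE-Cpr-null replicate 1 was at 0.44. Atp5c1, the central shaft, differed by -0.076 (SE 0.0385, adjusted p = 0.81). Its second probe set had the largest difference of any member, -0.41 (SE 0.269, adjusted p = 0.818), which rested on -1.11 and -0.58 on IE-Cpr-null replicates 2 and 4 with 0.034 and -0.038 on the others.

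Where a gene had several probe sets, these mostly pointed the same way. Of 45 such genes 33 had all probe sets negative, 0 all positive and 12 both signs. Of the 37 genes with a single probe set 31 were negative. With the mean of each gene's probe sets, 73 of 82 genes were negative, 11 had groups apart (3% of all 10401 genes) and 12 had an unadjusted p under 0.05 (5.42% lower).

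Genes that build, feed or regulate the chain were described from 3 lists. Of 40 assembly and insertion factors 29 were measured, with 33 of 41 probe sets negative, a median of -0.069, 9 lower at an unadjusted p under 0.05 (22.0%, against 4.47% of all probe sets) and 0 higher (2.92% of all). With groups apart, 7 were lower (17.1%, against 2.47% of all probe sets) and 0 higher. Ecsit, a complex I assembly factor, read 0.099, -0.021, -0.063 and 0.021 on WT arrays and -0.24, -0.36, -0.40 and -0.33 in IE-Cpr-null, with groups far apart (difference -0.34, SE 0.0479, adjusted p = 0.179). Sdhaf4, of complex II, differed by -0.31 (SE 0.0791, adjusted p = 0.343) and Uqcc1, of complex III, by -0.43 (SE 0.119, adjusted p = 0.345).

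Of 28 carriers and partner genes 22 were measured, with 32 of 42 probe sets negative (median -0.059) and 2 lower at an unadjusted p under 0.05 (4.76%, near the 4.47% of all probe sets; 0 higher). With groups apart, 3 were lower (7.14%, against 2.47% of all probe sets) and 0 higher. The ubiquinone synthesis gene Coq9 differed by -0.18 (SE 0.0485, adjusted p = 0.432), the mitochondrial creatine kinase gene Ckmt1 by -0.099 (SE 0.0305, adjusted p = 0.628) and Suox, a sulfite oxidase that hands electrons to cytochrome c, by -0.14 (SE 0.0647, adjusted p = 0.717). Cytochrome c itself, Cycs, was at -0.057 (SE 0.0205, adjusted p = 0.81).

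Of 26 regulators 22 were measured, with 28 of 39 probe sets negative (median -0.064), 7 lower at an unadjusted p under 0.05 (17.9%, against 4.47% of all probe sets) and 0 higher. These 7 came from only 3 genes, Ppargc1a, Polg and Sirt3. Ppargc1a, the coactivator PGC-1alpha of mitochondrial genes, gave 5 of the 7, so that share rested mostly on 1 gene. Ppargc1a also gave all 5 probe sets with groups apart (12.8% of the list, against 2.47% of all). Its leading probe set read 0.057, -0.098, 0.020 and -0.020 on WT arrays and -0.37, -0.50, -0.20 and -0.42 in IE-Cpr-null (difference -0.36, SE 0.0714, adjusted p = 0.252). The other 4 differed by -0.56, -0.32, -0.38 and -0.38, so every one of 5 probe sets was lower on every IE-Cpr-null array, yet none passed the threshold. The mitochondrial DNA polymerase gene Polg differed by -0.28 (SE 0.093, adjusted p = 0.485) and the deacetylase gene Sirt3 by -0.24 (SE 0.0986, adjusted p = 0.62). Nrf1 (0.18, SE 0.11, adjusted p = 0.796), Gabpa (0.15, SE 0.085, adjusted p = 0.78) and Tfam, the mitochondrial transcription factor (-0.034, SE 0.114, adjusted p = 0.908), were chosen after their values were seen. The sign of Tfam turned with quantile normalization (0.00313) and without WT replicate 1 (0.00516) or IE-Cpr-null replicate 2 (0.0492).

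For comparison, cytosolic ribosomal protein genes were taken by symbol, Rpl or Rps followed by a digit or p. Genes named so that encode no ribosomal protein were not excluded. These had 55 of 100 probe sets negative, a median of -0.0060, 0 lower and 1 higher at an unadjusted p under 0.05, and 0 with groups apart. Mitochondrial ribosomal protein genes had 86 of 122 negative and a median of -0.063. With groups apart, 10 were lower (8.2%, against 2.47% of all probe sets) and 2 higher (1.64% of all). At an unadjusted p under 0.05, 17 were lower (13.9%, against 4.47% of all) and 2 higher (2.92% of all). Genes of the tricarboxylic acid cycle and pyruvate dehydrogenase, without the Sdh genes, had 24 of 27 negative, a median of -0.14 and 8 lower with groups apart (29.6%). In this list 12 were lower at an unadjusted p under 0.05 (44.4%) and 0 higher. These lists were chosen with results known and no difference between them and the members was tested.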

How the data were processed

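Expression was measured on 8 single-colour arrays, 4 WT and 4 IE-Cpr-null, grouped and numbered by the sample titles. The authors deposited log2 values, made with GCRMA per the submitters' processing notes (no version is named there). Each probe set had also been centred: its WT median was 0 within 0.00001 throughout. Centring leaves differences between groups unaltered but removes levels, so no dim probe set was left out. Probe sets were named from the platform annotation: 16689 had 1 symbol, 616 several and 1138 none. All 82 member symbols were in a mouse gene table (GRCm38.p6).

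All 18443 probe sets were fitted with limma 3.58.1 in R 4.3.3 (2 group means, constant prior with 1.54 degrees of freedom, two-sided) and adjusted with Benjamini-Hochberg at 0.05. Intervals are 95% and, like p, use the variance that limma moderates over all probe sets. SE is from each probe set's own residual SD. Intervals can therefore be wider than the SE alone would give, as for Ndufa1 (SE 0.015, interval -0.145 to -0.0016). The fit was tested on simulated data with independent noise. Shifts shared by many probe sets of an array were not simulated, so that test does not cover them. The members and lists were chosen with earlier results of these data known. Members were named as the 4 genes of smallest p and the 2 of largest difference in each complex, fixed subunits and isoforms, and genes whose probe sets disagree, some without all 8 array values; Ndufa1, Ndufa4, Ndufa5, Ndufa6, Ndufa9, Ndufc1, Ndufc2, Ndufaf1, Ndufaf7, Ndufs1, Ndufs3, Ndufv1, Ndufv2, Uqcrfs1, Uqcrh, Cox5b and Cycs were added after their values were seen. Related genes named are the 3 of smallest p in each list. Alternatives were quantile normalization, median centring, array weights, the replicate number as a block, a robust prior, leaving out _x_at and _s_at or low-SD probe sets, gene means, and leaving out arrays.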

Additional observations from a re-analysis of the deposited data

Results flagged for a closer look

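In 122 groups of 4 arrays 2 held an array far from the other 3 for its group's range, where chance alone gives about 1 in 20. Ndufa10 was -0.208 on IE-Cpr-null replicate 3, against -0.13 to -0.118 on the others. Uqcc1 was -0.146 on IE-Cpr-null replicate 4, against -0.535 to -0.523.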

How the results depend on the processing

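Every complex median that the 18 alternatives gave was negative, but complexes II and III had no member left, and so no value, among probe sets of high SD. The replicate block and the robust prior cannot change a difference in this balanced design, so their medians equalled the main ones. Quantile normalization gave 10 members lower at an unadjusted p under 0.05, 5 with every IE-Cpr-null array below WT and -0.0441 for complex II. Array weights, which gave IE-Cpr-null replicate 4 a weight of 6.49 and the other arrays 0.329 to 2.84, gave 4 members past an adjusted p of 0.05 (4.02% of all probe sets): Ndufa5 (-0.185), Ndufa10 (-0.153) and Uqcr10 in 2 probe sets (-0.114 and -0.136). They also gave 35 lower (11.6% of all probe sets) and 4 higher at an unadjusted p under 0.05, -0.041 for complex II and -0.0448 for complex III. The share of all probe sets higher was not counted with weights. With weights Ecsit (-0.341, adjusted p = 0.00915), Ppargc1a (-0.386, 0.0162), Sdhaf4 (-0.301, 0.0371), Coq9 (-0.202, 0.04) and Gabpa (0.313, 0.0467) passed too; without weights the lowest adjusted p of the 56 named genes over the alternatives was 0.0712 (limma). Among probe sets whose SD exceeded the median SD were 22 members, with medians of -0.148 (I), -0.284 (IV) and -0.154 (V). Of these, 0 were lower at an unadjusted p under 0.05 (5.22% of all probe sets of high SD) and 0 had groups apart as lower (3.32%). That filter removed the other 128 members, so few were left for these counts. Gene means gave 12 lower and 11 with groups apart, of 82 genes. Without the muscle-rich arrays 13 were lower at an unadjusted p under 0.05 (4.92% of all probe sets). In that setting 37 had groups apart as lower (6.9% of all) and 1 as higher, and fewer arrays make separation easier. Medians there were -0.046 (II) and -0.0303 (V). Without the hepatocyte-rich arrays 5 were lower, 1 was apart as higher and the complex II median was -0.0859. Leaving out 1 array gave 9 to 23 lower (9 without WT replicate 2 or IE-Cpr-null replicate 2, 13 without WT replicate 4), 0 past the adjusted threshold, 22 to 48 apart as lower (48 on dropping WT replicate 1, 35 and 32 on dropping replicate 1 or 4 of IE-Cpr-null) and 0 to 1 as higher, and medians of -0.0758 to -0.0506 (I), -0.0726 to -0.0354 (II), -0.0927 to -0.0564 (III), -0.0472 to -0.0174 (IV) and -0.0612 to -0.0335 (V). The replicate block gave 18 lower at an unadjusted p under 0.05 (5.04% of all probe sets) and 0 past the threshold. Same-numbered arrays correlated at -0.058, -0.041, 0.26 and 0.13, so not every pair was above 0.1. The numbers were not taken to pair the samples, although WT replicates 3 and 4 correlated best with their own number. The sign turned for Cox6b2 (-0.222 without the hepatocyte-rich arrays, and -0.0749 to 0.337 with 1 array left out, lowest without IE-Cpr-null replicate 3), Cox7a2 (0.000348) and Ndufs4 (0.0082) with array weights, Cox8a (0.00434 without the muscle-rich arrays, and -0.0537 to 0.00787 with 1 array left out) and Tfam (0.00313 with quantile normalization, and -0.0958 to 0.0492 with 1 array left out). The causes were not tested. Signal over background is unknown in centred values.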
